A study of Homo sapiens with 27 samples.

Results

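The regions described here were 3 chromosome segments that an outside karyotype reports as gained in HCT116, a human colorectal carcinoma cell line. They were chromosome 8 from 68 Mb to its end (68000001 to 145076542), chromosome 10 from 100 Mb to its end (100000001 to 133778759) and chromosome 17 from 42 Mb to its end (42000001 to 83246391), in GRCh38 coordinates. The rule that chose them names positions and uses no measured value. They held 154 of the 3043 1-Mb bins into which the autosomes and the X chromosome were divided. The rest of the same chromosomes held 210 bins and served as the comparison. The chromosome 8 segment held 77.1 Mb and 345 protein-coding genes, or 4.48 genes per Mb against 5.44 in the rest of the chromosome. The chromosome 10 segment held 33.8 Mb and 227 genes, or 6.72 per Mb against 5.07. The chromosome 17 segment held 41.2 Mb and 541 genes, or 13.1 per Mb against 14.95.

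PiggyBac is a DNA transposon that its transposase cuts out of a donor and pastes into the tetranucleotide TTAA, which it leaves intact and doubles at the ends of the insertion. Its insertions are known to lie more often in open, gene-rich and transcribed chromatin than in silent chromatin. A segment present in an extra copy offers extra targets, so the density of insertions can carry a copy-number step, but gene density has to be scaled out first. HCT116 is described in the literature as a near-diploid line with a few extra arm segments and a single X chromosome.

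The study placed self-reporting transposons, whose own transcripts run into the flanking genome and reveal the insertion by RNA sequencing, in HCT116 cells. Bulk transfected cells of this 1 line were selected in puromycin at 3 µg/ml for 2 weeks in every group. The 27 libraries formed 9 groups of 3 replicates. Cells with the wild-type transposon received 1 of 4 transposases: piggyBac (group WT_PB), its hyperactive form (group WT_hyPB), its re-engineered form (group WT_rePB) or the form that is re-engineered and hyperactive (group WT_rehyPB). In groups short_PB and short_hyPB a short transposon was mobilised by piggyBac or by the hyperactive form. In groups sym_rePB and sym_rehyPB a symmetric transposon was mobilised by the re-engineered form without or with the hyperactive change. In group WT_PBat the wild-type transposon was given with piggyBat, a related element found in a bat. The labels do not define re-engineered, short or symmetric, and they do not say whether replicates were separate cultures, so p-values measure only the spread between these libraries.

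A site was 1 insertion position in a deposited peak list, counted once also where both orientations were listed. The sequences below show the target itself for insertions of the chromosome 10 and 17 segments. They were picked from the promoter-window targets listed in most libraries, and not strictly by rank. The chromosome 17 target of TSPAN10, listed in 18 libraries, is not shown. Each is 30 bases of the plus strand of GRCh38.p14, as RefSeq gives it, with the TTAA target in capitals. PRDX3 encodes a mitochondrial peroxiredoxin and its 30 bases lay at chr10:119178925-119178954. PCGF6 encodes a Polycomb group protein and its 30 bases lay at chr10:103351243-103351272. RNF43 encodes a ubiquitin ligase that removes Wnt receptors and its 30 bases lay at chr17:58417686-58417715. HSD17B1-AS1 is an antisense gene and its 30 bases lay at chr17:42555022-42555051.
PRDX3: ggagaaattccctTTAAggctgaatgcttg
PCGF6: cgcgggccgcactTTAAaggaatctcacca
RNF43: acacaacacttacTTAAccagacccgttct
HSD17B1-AS1: tgtgggtggctaaTTAAgatagatcgcgtt
The PRDX3 target was listed in 19 libraries, the PCGF6 target in 16, the RNF43 target in 17 and the HSD17B1-AS1 target in 23. Their peak heights ran from 5 to 102, 5 to 115, 7 to 153 and 5 to 90. The motif searched was TTAA, which reads the same on both strands. Of 34961 RefSeq promoter windows, each 250 bases before to 50 after a gene start, 46.1% held it. In the 12 deep libraries, 97.0% to 98.2% of the sites in such windows lay on one of their 28785 distinct TTAA positions.

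The 12 libraries of the wild-type transposon with a piggyBac transposase were deep, with 336323 to 570354 sites each. The other 15 were shallow, with 2814 to 9212 sites, so every value from them is less precise. Of WT_hyPB replicates 1 and 2, 75.4% and 76.3% of sites were shared, against 26.1% to 29.0% for the other WT_hyPB pairs and 13.8% to 23.1% within the other deep groups. WT_PBat replicates 1 and 3 shared 52.5% and 42.5%, against 8.55% to 10.997% for the other WT_PBat pairs. These pairs may not be independent samples. The reads carry no molecular identifiers and a site is counted once whatever its height.

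In the 4 deep groups the sites were denser in each of the 3 segments than in the rest of its chromosome. In WT_PB the chromosome 8 segment held 232, 182 and 222 sites per Mb in replicates 1, 2 and 3, against 174, 134 and 163 in the rest. The chromosome 10 segment held 234, 184 and 227 sites per Mb, against 183, 149 and 181. The chromosome 17 segment held 277, 214 and 260 sites per Mb, against 151, 114 and 143. Segment and rest did not overlap on any of the 3 chromosomes within these libraries. A deep library listed 11772 to 20210 sites in the chromosome 8 segment, 5319 to 8976 in that of chromosome 10 and 8409 to 14335 in that of chromosome 17. A shallow library listed 124 to 344, 87 to 214 and 142 to 496.

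To scale by gene density, each bin was given an expected number of sites from its class of protein-coding gene number, learned within the same library on the autosomes other than 8, 10 and 17. The step was the log2 ratio of observed over expected sites in the segment to that in the rest of the chromosome. Bins under 10% of the median density were left out, which kept 69, 30 and 40 bins of the 3 segments. For reference, 1 extra copy over 2 would give a ratio of 1.5, or 0.58 on this scale. More copies of a segment and more insertions per copy cannot be told apart from site density.

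After scaling, the chromosome 17 segment had the largest step of the 3 in each deep group, chromosome 8 was intermediate and chromosome 10 the smallest. For chromosome 17, WT_PB had a step of 0.87 ± 0.02 (SD, n = 3), WT_hyPB one of 0.91 ± 0.03, WT_rePB one of 0.87 ± 0.01 and WT_rehyPB one of 0.88 ± 0.01. On chromosome 8 it was 0.56 ± 0.01, 0.44 ± 0.01, 0.46 ± 0.01 and 0.48 ± 0.01 in the same order. On chromosome 10 it was 0.29 ± 0.02, 0.23 ± 0.01, 0.24 ± 0.01 and 0.21 ± 0.01. The mean over the deep groups was a 1.84-fold density on chromosome 17, 1.40-fold on chromosome 8 and 1.18-fold on chromosome 10. Of these, the chromosome 17 value lay above the ratio for 1 extra copy and the others below it. The ranges of the 12 deep libraries did not overlap between chromosomes: 0.85 to 0.94 on chromosome 17, 0.44 to 0.57 on chromosome 8 and 0.20 to 0.31 on chromosome 10. Without the gene-density scale the deep means were 0.89, 0.35 and 0.29.

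The rest of each chromosome contributed to these ratios. In the deep groups the chromosome 17 segment held 1.499 to 1.59 times its expected sites and the rest 0.813 to 0.862 times. The chromosome 8 segment held 1.36 to 1.40 times and the rest 0.951 to 1.00 times. The chromosome 10 segment held 1.25 to 1.27 times and the rest 1.04 to 1.09 times. The single X chromosome gave a reference for the scale, where 1 copy of 2 would give 0.5. Its observed over expected value was 0.463 to 0.477 in the deep groups. Among the shallow groups the value was lower, from 0.232 with sym_rePB to 0.458 with WT_PBat. Below WT_PBat the highest shallow value was 0.374, for short_PB. The X value thus came near 0.5 in the deep groups and WT_PBat, and the other shallow groups fell further below it. Autosomes departed from their expected sites as well. In WT_PB the autosomes other than 8, 10 and 17 ran from 0.714 on chromosome 19 to 1.18 on chromosome 6. Whether the X value comes from copy number alone was not tested.

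The shallow groups had larger steps with a wider spread. On chromosome 8, replicates 1, 2 and 3 gave 0.77, 0.57 and 0.81 in short_PB and 0.93, 1.24 and 1.04 in short_hyPB. The symmetric transposon gave 1.59, 1.32 and 1.65 with re-engineered piggyBac and 1.52, 1.09 and 1.61 with its hyperactive form. WT_PBat gave 0.72, 0.89 and 0.66. Each of these 15 values reached or passed the highest deep value, 0.57. On chromosome 10 the shallow groups' means ran from 0.58 ± 0.08 (SD, n = 3) in short_PB to 1.16 ± 0.14 in sym_rePB. On chromosome 17 they ran from 1.11 ± 0.23 in short_PB to 1.52 ± 0.13 in sym_rehyPB. Averaged over the 5 shallow groups, the density ratio was 2.14-fold on chromosome 8, 1.87-fold on chromosome 10 and 2.52-fold on chromosome 17. The plot of steps in the 27 libraries shows both sets.

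**Figure D1:**
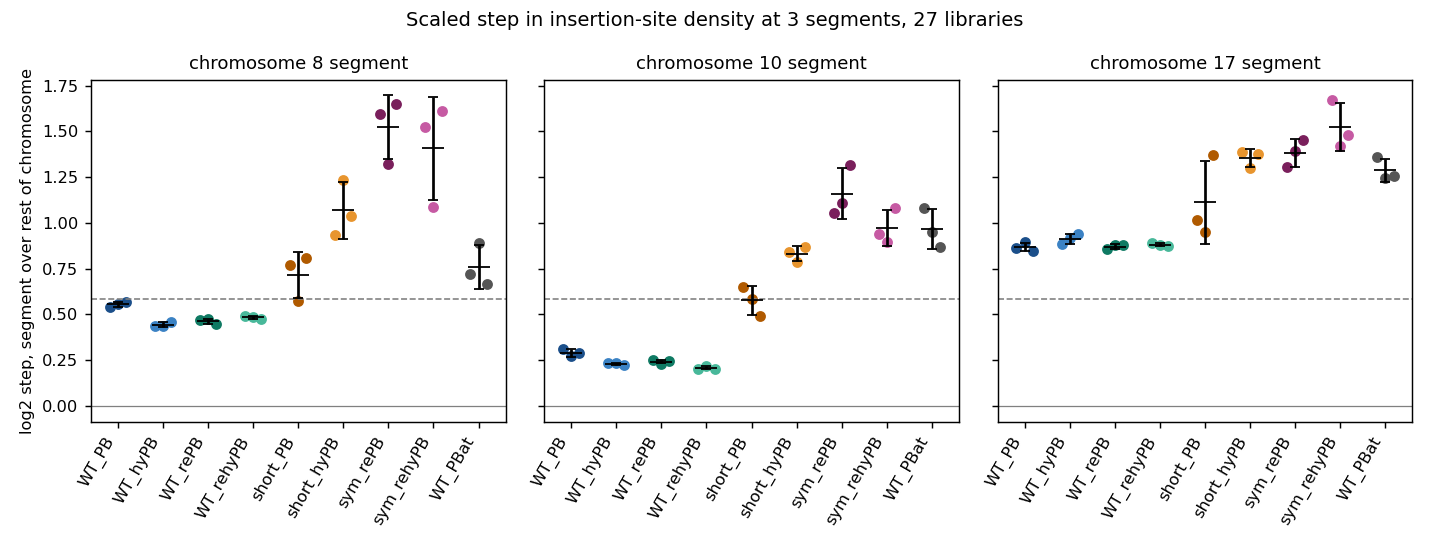
Log2 step of each library (points) with the group mean and SD (bars, n = 3) for the chromosome 8, 10 and 17 segments; the dashed line marks 1 extra copy over 2, 0.58. The 12 deep libraries form tight clusters of 0.44 to 0.57, 0.20 to 0.31 and 0.85 to 0.94, and the 15 shallow libraries lie higher and spread more.

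The next question was whether the step differs between transposon systems in the same cells. Steps were compared with two-sided exact permutation tests within matched pairs of groups, adjusted by Benjamini-Hochberg over 15 tests. The short transposon had higher steps than the wild-type transposon by 0.39, 0.44 and 0.34 on chromosomes 8, 10 and 17 (exact permutation, p = 0.005, the smallest this design gives, adjusted p = 0.0107 each). The symmetric transposon had higher steps by 0.99, 0.84 and 0.58 (exact permutation, adjusted p = 0.0107 each). Both comparisons set shallow libraries against deep ones, so transposon and depth cannot be told apart.

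These differences depended on which sites and bins were kept. The short transposon's calls on chromosomes 8 and 17 were also lost without gene scaling, at 0.22 and 0.21. When every library was cut to its 2814 tallest sites, a setting chosen after seeing the data, the deep means rose to 1.31, 0.86 and 1.54 on chromosomes 8, 10 and 17, beside shallow means of 1.23, 0.98 and 1.37. The short transposon's difference on chromosome 8 was then -0.31, the opposite direction (exact permutation, adjusted p = 0.0375), and those on chromosomes 10 and 17 were -0.03 and -0.17 (adjusted p = 0.906 and 0.643). The symmetric transposon's differences were 0.28, 0.26 and -0.12 (exact permutation, adjusted p = 0.394, 0.0375 and 0.647). A random draw of the same number of sites left the deep means at 0.52, 0.20 and 1.11. With the densest 5% of bins left out, the deep means were 0.28, 0.06 and 0.75 and the shallow means 0.11, 0.34 and 1.08. The chromosome 8 difference then turned to -0.23 for the short transposon (exact permutation, adjusted p = 0.025) and to -0.09 for the symmetric one (adjusted p = 0.773). The plot of matched site numbers shows these values side by side.

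**Figure D2:**
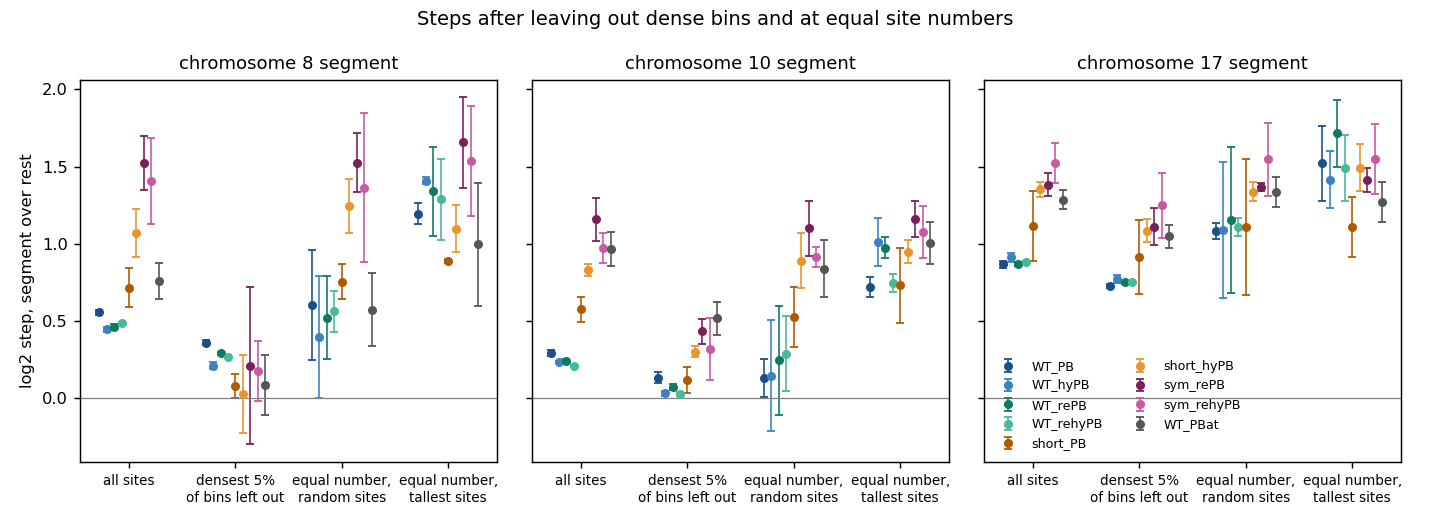
Mean log2 step of the segments in deep and shallow groups with all sites, with a random draw of 2814 sites per library, with the 2814 tallest sites and without the densest 5% of bins. With the tallest sites the deep means (1.31, 0.86 and 1.54 on chromosomes 8, 10 and 17) lie near the shallow means (1.23, 0.98 and 1.37).

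Among deep and matched shallow pairs, the hyperactive transposase had a higher step on chromosome 17, by 0.11 (exact permutation over 4 pairs, p = 0.00968, adjusted p = 0.0181). The call was lost when any short_hyPB library or sym_rePB replicate 1 was left out (adjusted p = 0.0571 to 0.0887) and under most other settings. On chromosomes 8 and 10 its differences were 0.04 and -0.01 (exact permutation, adjusted p = 0.636 and 0.892). The re-engineered transposase had a lower step on chromosome 10, by 0.04 (exact permutation, p = 0.005, adjusted p = 0.0107). That call was lost in 4 settings, and thinning to 2814 sites turned the difference to 0.129 (exact permutation, adjusted p = 0.69). On chromosomes 8 and 17 its differences were -0.03 and -0.01 (exact permutation, adjusted p = 0.323 each). piggyBat stood 0.20, 0.67 and 0.42 above piggyBac on chromosomes 8, 10 and 17, again with shallow libraries against deep ones. The chromosome 8 direction turned in 5 settings, among them no gene scaling (-0.11), and the chromosome 17 direction with the tallest sites (-0.25). With 3 libraries against 3 the smallest exact permutation p is 0.1, which each of these reached (adjusted p = 0.136).

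The same measure between the distal and proximal side of every autosome's midpoint showed how the 3 chromosomes stood among others. In WT_PB the distal side exceeded the proximal side by 0.84 on chromosome 17, the highest of 22 autosomes, and by 0.61 on chromosome 8, the second highest. Chromosome 10 stood at 0.22. The other 19 autosomes ran from -0.18 to 0.42 in WT_PB and from -0.23 to 0.44 over the 4 deep groups. Chromosomes 17 and 8 kept ranks 1 and 2 in the other deep groups and chromosome 10 was 10 or 11, inside the range of the other autosomes. In the shallow groups the other autosomes ran more widely, from -1.33 in sym_rehyPB to 1.14 in WT_PBat. Chromosome 17 ranked 1 or 2 there. Chromosome 8 ranked 3 in short_PB, 4 in WT_PBat and 1 or 2 in the others, and chromosome 10 ranked from 3 to 10. The plot of all autosomes gives the deep values.

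**Figure D3:**
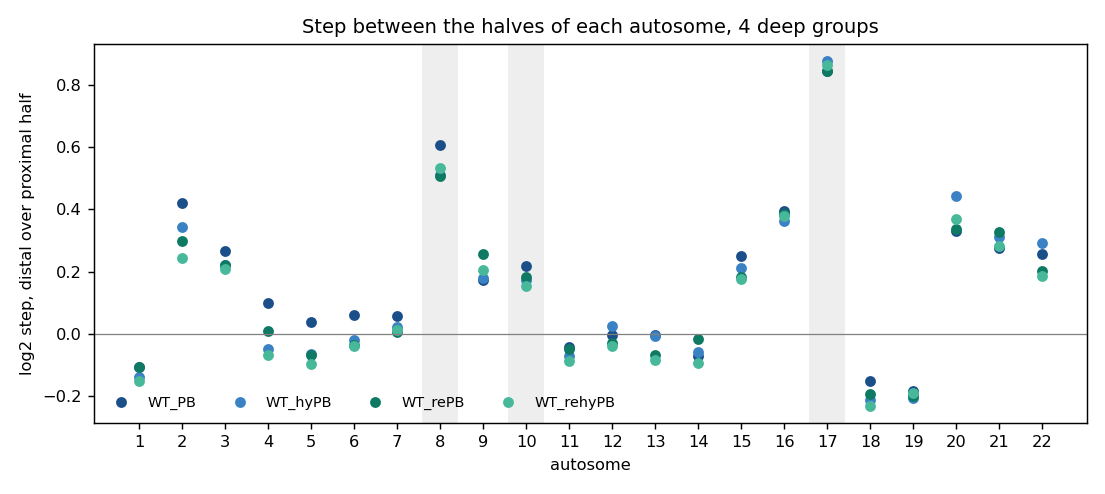
Log2 step between the distal and proximal side of each autosome's midpoint in the 4 deep groups (points are group means); grey bands mark chromosomes 8, 10 and 17. Chromosomes 17 and 8 lie above the other autosomes, which stay between -0.23 and 0.44, and chromosome 10 lies among them.

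The excess was uneven along each segment. In 10-Mb windows counted from the boundary, the deep groups' observed over expected values on chromosome 8 were 1.03, 1.07, 1.39, 1.48, 0.887, 2.32, 1.63 and 0.802. The last window before that boundary held 0.970, so the density was much the same on both sides of the boundary, and the highest window was the sixth, which began 50 Mb past it. On chromosome 10 the windows held 1.497, 1.76, 1.01 and 0.222 after 1.21 before the boundary, with the last window short and of 4 bins. On chromosome 17 they held 1.35, 1.52, 1.91 and 1.47 after 0.764 before the boundary. Chromosome 17 thus had an excess in each of its windows and a change at its boundary. The shallow groups had the same high windows, at 4.89 on chromosome 8, 3.702 on chromosome 10 and 2.56 on chromosome 17. Their chromosome 8 windows at 0 to 10, 10 to 20 and 40 to 50 Mb past the boundary held 0.561, 0.510 and 0.475. These lay below the deep values of the same windows.

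The single division that took up most variance between bins lay elsewhere than the named boundaries in the deep groups. On chromosome 17 it lay 5 Mb past the boundary, with a step of 1.00 to 1.08 and 26.9% to 28.8% of the variance, against 19.3% to 20.9% at the boundary. On chromosome 8 it lay 25 Mb past the boundary, with a step of 0.63 to 0.71 and 10.3% to 14.4% of the variance, against 4.98% to 8.94%. On chromosome 10 it lay 24 Mb past the boundary and was a fall, of -0.77 to -1.02, toward the chromosome end. By this measure the chromosome 10 step at the named boundary was 0.003 to 0.18, with 0.000242% to 0.641% of the variance.

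**Figure D4:**
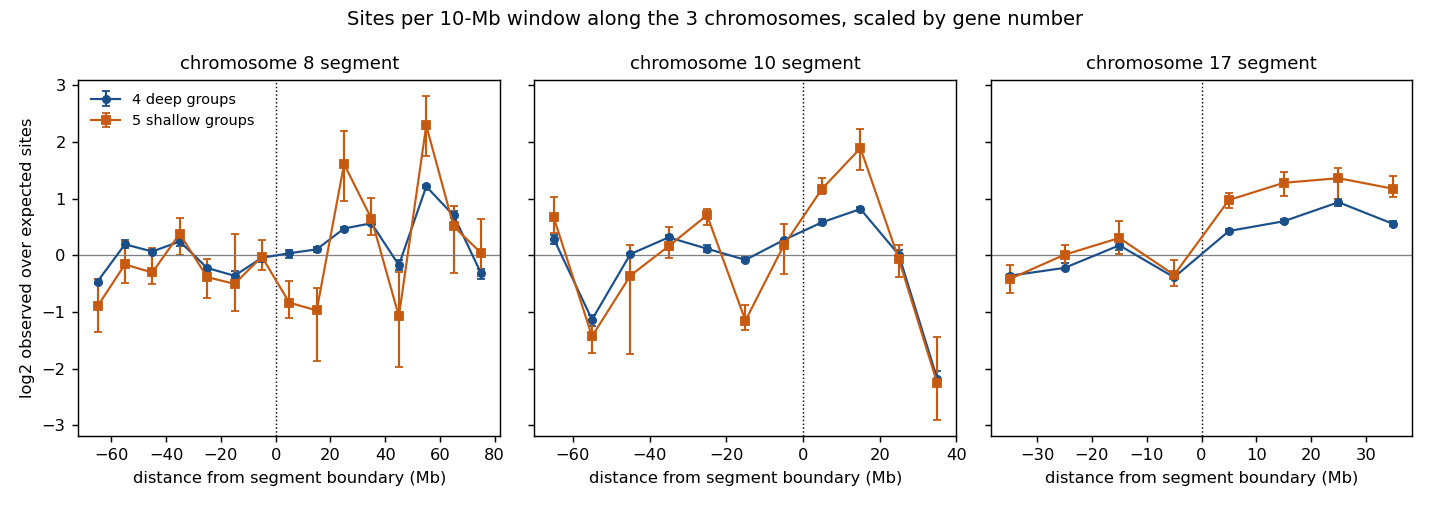
Log2 observed over expected sites in 10-Mb windows at distances from each segment's boundary (0 on the horizontal axis), for the deep and shallow groups. The deep values on chromosome 8 reach 1.21 (2.32-fold) in a window 50 to 60 Mb past the boundary. On chromosome 17 they go from -0.39 (0.764-fold) before it to 0.43 (1.35-fold) after it.

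Counted by bin, 31.9% to 36.2% of the 69 chromosome 8 bins held at least 1.5 times their expected sites in the deep groups. Over 2421 autosomal bins WT_PB had a share of 12.1%, WT_hyPB of 13.8%, WT_rePB of 13.4% and WT_rehyPB of 13.7%. On chromosome 10 the count was 9 to 11 of 30 bins, beside 20 to 23 of 87 in its rest. On chromosome 17 it was 17 to 21 of 40 bins, beside 1 of 36 in its rest. The median bin of the chromosome 17 segment held 1.46 to 1.52 times its expected sites, against 0.855 to 0.903 in its rest. The median bins of the chromosome 8 and 10 segments held 1.05 to 1.19 and 1.06 to 1.19 times, against 0.843 to 0.959 and 0.860 to 0.956. On chromosomes 8 and 10 the median bin thus lay nearer to its expected value than on chromosome 17.

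The 3 densest bins of each segment held more sites than expected in each of the 9 groups. On chromosome 8 the bin at 127 to 128 Mb, which holds MYC, a transcription factor that drives growth, stood at a mean log2 observed over expected of 3.76. It held 677 to 797 sites in each WT_PB library. MYC itself took 0.911% of the bin's sites in the deep groups, so the density lay outside the gene. The bin at 125 to 126 Mb stood at 3.69, and NSMCE2, a SUMO ligase of the SMC5/6 complex, took 50.4% of its deep sites. The bin at 93 to 94 Mb stood at 3.27, with TMEM67, a protein of the cilium's transition zone, as its leading gene at 14.2%.

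On chromosome 10 the bin at 112 to 113 Mb stood at 3.23, and VTI1A, a SNARE of vesicle transport, took 64.9% of its deep sites. The bins at 110 to 111 and 100 to 101 Mb stood at 1.67 and 1.28. Their leading genes were RBM20, a splicing regulator, at 15.7% and DNMBP, an exchange factor for CDC42, at 3.67%. On chromosome 17 the bin at 72 to 73 Mb stood at 2.57, led by the zinc transporter gene SLC39A11 with 25.002% of the deep sites. The bin at 59 to 60 Mb stood at 2.13, led by VMP1, an autophagy membrane protein, with 34.8%. The bin at 64 to 65 Mb stood at 1.91, led by SMURF2, a ubiquitin ligase of TGF-beta signalling, with 15.7%. The sparsest bins kept stood at -2.19 on chromosome 8 (84 to 85 and 71 to 72 Mb), at -2.67 and -2.50 on chromosome 10 (130 to 131 Mb and from 133 Mb to the end) and at -2.90 and -2.70 on chromosome 17 (46 to 47 and 54 to 55 Mb).

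By gene, NSMCE2, VTI1A and VMP1 had the highest mean rate over the 9 groups in the chromosome 8, 10 and 17 segments. In the 4 deep groups alone SKAP1 stood above VMP1, at 5.52 against 4.34 per 10000 sites in WT_PB. NSMCE2 (chromosome 8, 125091860 to 125367120) held 392 to 491 sites per WT_PB library, or 11.3 ± 0.0470 (SD, n = 3) per 10000 sites of the library. In sym_rePB it held 15 to 21 sites, or 56.6 ± 8.98 per 10000, beside 9.47 ± 0.123 in the matched WT_rePB. VTI1A (chromosome 10, 112446988 to 112855368) held 463 to 575 WT_PB sites, or 13.4 ± 0.305 per 10000, with 85.7 ± 9.83 in sym_rePB beside 11.9 ± 0.201 in WT_rePB. VMP1 (chromosome 17, 59707654 to 59842255) held 167 to 183 WT_PB sites, or 4.34 ± 0.421 per 10000, with 36.2 ± 5.68 in sym_rePB beside 3.83 ± 0.0344 in WT_rePB. The mean that chose these 3 genes includes sym_rePB, so high values in that group are partly built into the choice. Per 100 kb of gene, the mean over the 9 groups was 10.1 per 10000 sites for NSMCE2, 9.48 for VTI1A and 12.7 for VMP1, below the 13.05 of ACSL5. These genes were chosen for their rates, so the values are descriptions without a test.

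Neighbouring genes took different shares of the sites by system. TCF7L2, the Wnt pathway's transcription factor beside VTI1A, held 3.78 ± 0.197 sites per 10000 (SD, n = 3) in WT_PB, 6.29 ± 5.45 in sym_rePB and 30.2 ± 4.87 in WT_PBat. ACSL5, an acyl-CoA synthetase on the other side of VTI1A, held 1.92 ± 0.313 in WT_PB, 18.95 ± 9.55 in sym_rePB and 1.81 ± 0.955 in WT_PBat. Of these neighbours TCF7L2 was thus high with piggyBat and ACSL5 with the symmetric transposon. PVT1, a long noncoding RNA beside MYC, held 2.30 ± 0.105 in WT_PB and 12.9 ± 2.42 in WT_PBat. MYC held 6 to 9 sites per WT_PB library, 1 to 5 per WT_PBat library and none in the 6 symmetric libraries. The next protein-coding genes on chromosome 8 by the mean over groups were TMEM67 (3.16 per 10000), CYRIB (3.11), STK3 (2.98), a kinase of the Hippo pathway, and ASAP1 (2.77). On chromosome 10, ABLIM1, which binds actin, and GRK5, a kinase of G protein-coupled receptors, followed at 3.54 and 3.05. On chromosome 17, ARSG, a lysosomal sulfatase, stood at 6.27, the adaptor SKAP1 at 6.22, the lipid transfer protein PITPNC1 at 5.82 and CUEDC1 at 5.60.

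Known growth and cancer genes were taken from lists of 18, 15 and 20 genes in the chromosome 8, 10 and 17 segments. In every WT_PB library, 17, 13 and 20 of them held a site, against 75.1%, 75.8% and 65.2% of all protein-coding genes of those segments. The listed genes were longer, with medians of 104, 131 and 80.7 kb against 29.4, 32.4 and 18.04 kb. Per 100 kb the list medians in WT_PB were 0.873, 0.389 and 0.643 sites per 10000, against 0.504, 0.516 and 0.434 for all genes, so the chromosome 10 list lay below its segment. PTK2, the focal adhesion kinase, stood at a mean of 2.15 per 10000 over the groups, SUFU, a repressor of Hedgehog signalling, at 2.50, MSI2, an RNA-binding protein, at 4.06 and PRKCA, a protein kinase C, at 3.65.

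Sites per bin were also compared between systems with limma (voom) over 2157 bins, of which 59, 23 and 38 lay in the chromosome 8, 10 and 17 segments, at an adjusted p under 0.05. With the short transposon 22 of the 38 chromosome 17 bins were higher and 5 lower, beside 16.6% higher and 36.7% lower of all bins tested. On chromosome 8 the split was 8 higher and 33 lower, and on chromosome 10 it was 7 and 5. With the symmetric transposon the splits were 27 and 5 on chromosome 17, 8 and 30 on chromosome 8 and 8 and 6 on chromosome 10, beside 20.7% and 36.6% of all bins. With piggyBat they were 18 and 7, 4 and 31 and 6 and 5, beside 15.7% and 40.9%. More chromosome 17 bins were thus higher than lower, and more chromosome 8 bins lower than higher, in the 3 comparisons. The rest of chromosome 17 leaned the same way, with 12 of 33 bins higher and 4 lower for the short form, 15 and 4 for the symmetric form and 14 and 3 for piggyBat. The lean on chromosome 8 turned at heights of at least 10 for the short transposon, to 11 higher and 7 lower of 54 bins. PiggyBat kept 5 and 24. For the symmetric transposon the chromosome 8 split at that height was 49 and 0. It was 21 and 0 of 24 bins on chromosome 10 and 35 and 0 of 37 on chromosome 17. The symmetric rise at that height was thus not particular to chromosome 8. The share over all bins at that height is not given here. The median change on chromosome 8 was -0.74, -0.65 and -1.10 in log2 for the short, symmetric and piggyBat comparisons, beside -0.35, -0.37 and -0.59 over all bins. On chromosome 17 it was 0.81, 1.00 and 0.98. When libraries were scaled by their median bin, the genome-wide splits were 396 higher and 592 lower, 495 and 433, and 427 and 654, and those of the chromosome 17 bins were 24 and 5, 27 and 4, and 26 and 6.

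Single bins moved far more. The bin at 93 to 94 Mb was 2.11 ± 0.10 (SE) higher in log2 with the short transposon (limma, adjusted p = 1.0e-14) and 3.29 higher with the symmetric one. With the symmetric transposon it held 246 sites in all, where the share of the wild-type libraries would give 25.6. On chromosome 10 the bin at 112 to 113 Mb was 1.65 higher with the short and 2.60 higher with the symmetric transposon (247 sites, where 41.3 would be expected from that share). On chromosome 17 the bin at 81 to 82 Mb was 2.60 higher with the symmetric transposon, and that at 71 to 72 Mb was 2.18 lower in log2 with the short one (limma, -2.18), with 5 sites where 27.3 would be expected. With piggyBat, the bin at 102 to 103 Mb of chromosome 10 was 2.23 higher (66 sites against 14.1). No piggyBat site lay in chromosome 17 at 70 to 71 or 71 to 72 Mb, where the WT_PB share would give 12.4 and 12.6.

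Hyperactive and re-engineered transposases moved few bins. With the hyperactive form 1 chromosome 8 bin was higher and 2 lower and none was called on chromosomes 10 and 17, beside 0.649% higher and 3.76% lower of all bins (limma, adjusted p). The lower bins lay at 131 to 132 and 139 to 140 Mb, at -0.79 and -0.64 in log2 (limma, adjusted p = 0.0259 and 0.00469). Their summed sites went the other way. The hyperactive libraries held 1759 and 398 sites, where the share of the matched libraries would give 1350 and 343. Single libraries of both sides held 0 sites in each bin. With the median scale 0 chromosome 8 bins were called higher and 1 lower with the hyperactive form. With the re-engineered form 1 bin was higher and 3 lower on chromosome 8, 1 and 1 on chromosome 10 and 2 and 0 on chromosome 17, beside 0.51% and 3.25%. The chromosome 17 bins at 60 to 61 and 62 to 63 Mb were 0.33 and 0.28 higher (limma, adjusted p = 0.000375 and 0.00348). None of these re-engineered calls held with the median scale, with heights of at least 10 or with limma-trend, which called 0 bins in the 3 segments.

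The step was largest for the tallest peaks. Height is a deposited signal, and the sources used here do not say what it measures per site. The rise was not steady, with WT_PB steps on chromosome 8 of 0.55, 0.50, 0.54, 0.57 and 0.79 from the lowest class to the highest. In WT_PB the chromosome 17 step was 0.76 for sites of height 5 to 6 and 1.28 for sites of 50 or more. On chromosome 10 it was 0.19 and 0.56, and on chromosome 8 it was 0.55 and 0.79. WT_hyPB went from 0.79 to 1.29, from 0.12 to 0.50 and from 0.39 to 0.88. The tallest sites had the largest step on each chromosome in both groups, as the plot of step by height shows.

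**Figure D5:**
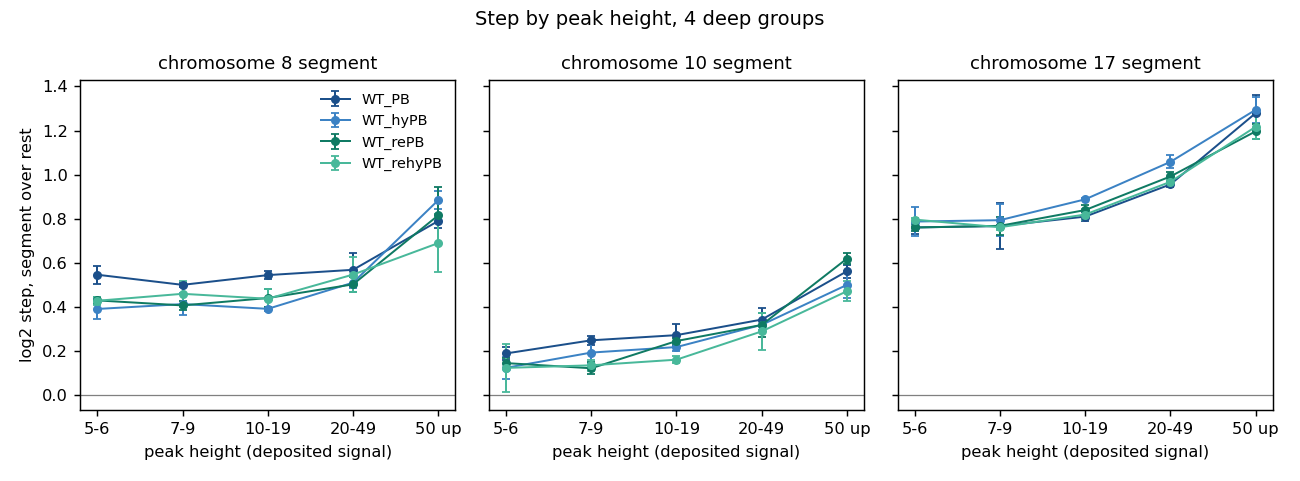
Log2 step of the segments by peak height class in the 4 deep groups (points are means of 3 libraries, bars are SD). The WT_PB step goes from 0.76 to 1.28 on chromosome 17, from 0.19 to 0.56 on chromosome 10 and from 0.55 to 0.79 on chromosome 8 between heights of 5 to 6 and 50 or more.

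Sites of the segments also differed from the rest in measures that do not use their number. Positions hit in both orientations made up a larger share in the segment in all 12 deep libraries for each chromosome, by 1.80 to 2.22 percentage points on chromosome 17, 0.622 to 1.04 on chromosome 8 and 0.606 to 1.34 on chromosome 10. Sites also listed in another replicate were more common in the segment by 4.10 to 10.7, 1.24 to 3.96 and 1.60 to 5.56 points in the same order. Denser sites coincide more often, and how much of these differences density alone gives was not tested. Mean log2 peak height was higher by 0.08 to 0.09 on chromosome 17 and by 0.09 to 0.11 on chromosome 10, and the chromosome 8 difference ran from 0.00 to 0.04, above 0 in 10 of 12 deep libraries.

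Promoter windows gave a count of targets as well as of sites. In WT_PB, 12.8% of the TTAA positions in promoter windows of the chromosome 17 segment were listed as sites, against 8.95% in the rest of that chromosome. In the chromosome 10 segment 10.9% were listed, against 10.3%. On the X chromosome the share was 6.56% and on the other autosomes, chromosome 8 included, it was 9.18%. Per target, the step of chromosome 17 was 0.51 ± 0.16 (SD) for WT_PB and 0.75 ± 0.03 for WT_hyPB. It was 0.70 ± 0.06 for WT_rePB and 0.58 ± 0.11 for WT_rehyPB. That of chromosome 10 was 0.08 ± 0.15, 0.18 ± 0.10, 0.11 ± 0.23 and 0.19 ± 0.09 in the same order of groups. Chromosome 17 thus stood above chromosome 10, as in the density scaled by genes, with smaller steps. For chromosome 10 the SD exceeded the mean in WT_PB and WT_rePB. The chromosome 8 segment was not counted per target.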

How the data were processed

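Each library was reverse-transcribed total RNA, amplified between the transposon end and the poly(A) tail, per the labels' protocols. cutadapt 3.4 and HISAT2 2.2.1.0, with builds hg38 and GRCh38.p5, are named in the submitters' processing notes; the peak caller is not given in the sources used here. The deposited peak lists give, per peak, position, strand, summed coverage and height (signal, at least 5 in every file) and 1 constant total per library, 142666 to 256608 in shallow and 8118085 to 12051190 in deep libraries. Whether the total counts reads is not stated, and only position, strand and height were used.

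A site was the peak start on the plus strand or the end minus 3 on the minus strand. Sites were counted per 1-Mb bin with RefSeq protein-coding genes (GRCh38.p14, 19974 genes) as the density scale, in 6 classes (0, 1 to 2, 3 to 5, 6 to 10, 11 to 20 and over 20 genes). The scale removes only what gene number per Mb carries; TTAA density, chromatin and mappability were not scaled. Steps were compared by exact permutation of libraries within pairs of groups, and bins with limma 3.58.1 in R 4.3.3 (bins with a mean of at least 1 site per 10000, voom weights, Benjamini-Hochberg at 0.05), fitted over all 27 libraries. Counting used Python 3.11.15 with pandas 2.3.3 and scipy 1.17.1. Scripts were tested on simulated data. Named bins were the 3 densest and 2 sparsest per segment by the mean over groups. Named genes were the 5 with most sites per 10000, the leading gene of each dense bin and the 3 highest of each listed set; bins named for a comparison between systems were those furthest from 0 among the called. TCF7L2, ACSL5, PVT1 and MYC are described further as neighbours, and the 4 sequences were picked, after their values were seen, from those in most libraries. The segments and gene lists were chosen with earlier results of these data known. Replicate numbers did not pair the libraries: over 33 same-numbered pairs the correlation of deviations ran from -0.03 to 0.06.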

Additional observations from a re-analysis of the deposited data

Results flagged for a closer look

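Differences between matched pairs of groups were tested by permutation, 12 tests in all, and 4 passed with an adjusted p of 0.0150 each. The mean effect, estimated from the same libraries, was taken out before permuting, so these p-values are approximate. In the short comparisons the permuted libraries also mix deep ones with shallow ones of wider spread. In each of the 4, pairs of the same contrast moved the step by different amounts, given here as the highest minus the lowest pair in log2. For the hyperactive transposase on chromosome 10 the gap was 0.44: the difference was 0.26 between short_hyPB and short_PB and -0.19 between sym_rehyPB and sym_rePB, with -0.06 and -0.03 in the deep pairs. For the re-engineered transposase on chromosome 8 the gap was 0.13, with -0.09 for the plain and 0.04 for the hyperactive form. For the short transposon the gap was 0.46 on chromosome 8, with 0.16 under piggyBac and 0.62 under hyperactive piggyBac. On chromosome 10 it was 0.32, with 0.29 and 0.60. The shallow pairs hold few sites (87 to 344 per library in these 2 segments), and what part depth has in these gaps was not tested.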

How the results depend on the processing

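Values are log2 in the order chromosome 8, 10 and 17 unless named, and steps are means over the 9 groups, 0.82, 0.61 and 1.13 as reported. Every step stayed above 0 under every setting. No scaling by genes gave 0.57 and 0.73 on chromosomes 8 and 10, gene-covered bases 0.69 and 0.73, all annotated genes 0.83 on chromosome 10, keeping all bins 0.96 on chromosome 8 and 5-Mb bins 0.86 on chromosome 10. Heights of at least 10 gave 1.09, 0.76 and 1.26, 30 Mb on both sides 0.68 and 0.76 on chromosomes 8 and 10, leaving out the densest 5% of bins 0.19, 0.22 and 0.93, thinning 1.24 on chromosome 17, and the tallest sites, added after seeing the data, 1.27, 0.93 and 1.44. The hyperactive difference on chromosome 17 (0.11) lost its call with no scaling (0.0912), gene-covered bases (0.0950), 5-Mb bins (0.0976), heights of at least 10 (0.168), 30 Mb (0.120), no dense bins (0.0883), thinning (0.0917) and tallest sites (0.0474). On chromosome 10 (-0.01, not called) it turned sign with no scaling (0.00152), all genes (0.00122), 30 Mb (0.0576), thinning (0.0606) and tallest sites (0.0494), and on chromosome 8 without dense bins (-0.0645). The re-engineered difference on chromosome 10 (-0.04) lost its call with all genes (-0.0211), heights of at least 10 (-0.0268), no dense bins (-0.0327) and tallest sites (-0.0063). With thinning the re-engineered differences turned to 0.0424, 0.129 and 0.0433, and with tallest sites those on chromosomes 8 and 17 to 0.0138 and 0.134. The short transposon's difference lost its call on chromosomes 8 and 17 with no scaling (0.22 and 0.21), gene-covered bases (0.31 and 0.23), 30 Mb (0.19 and 0.30) and thinning (0.50 and 0.14). Without dense bins it was -0.23 on chromosome 8 and 0.13 on chromosome 10, and with tallest sites -0.31, -0.0256 and -0.17. The symmetric transposon's difference was 0.33 on chromosome 17 with thinning, 0.28 and -0.12 on chromosomes 8 and 17 with tallest sites and -0.0854 on chromosome 8 without dense bins. The piggyBat difference on chromosome 8 turned to -0.11 with no scaling, -0.11 with 30 Mb, -0.28 without dense bins, -0.0333 with thinning and -0.20 with tallest sites, and that on chromosome 17 to -0.25 with tallest sites. The cause of these changes was not tested.

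With the replicate number as a block, exact sign flips cannot give an adjusted p below 0.0586, which the re-engineered difference on chromosome 10 (-0.0355), the short differences (0.39, 0.44 and 0.34) and the symmetric ones (0.99, 0.84 and 0.58) reached. In limma the block gave 116, 56, 1093, 1170 and 1226 called bins for the hyperactive, re-engineered, short, symmetric and piggyBat comparisons, against 95, 81, 1149, 1235 and 1221. Heights of at least 10 gave 45, 0, 1971 and 804 bins for the hyperactive, re-engineered, symmetric and piggyBat comparisons. No filter gave 155 and 1768 for re-engineered and short. The median scale gave 23 and 0, and limma-trend 41 and 0, for hyperactive and re-engineered. Unadjusted p-values under 0.05 numbered 48, 39 and 15 where those limma settings called 0 re-engineered bins. The short difference of the chromosome 8 bin at 88 to 89 Mb went from -2.04 to 0.0729 at heights of at least 10.

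Leaving out each library in turn moved the steps to 0.81 to 0.84, 0.60 to 0.61 and 1.12 to 1.14. The hyperactive differences ran from 0.01 to 0.08, -0.0198 to 0.0134 and 0.0890 to 0.14, the re-engineered from -0.03 to -0.02, -0.04 to -0.03 and -0.02 to -0.01, and the short from 0.35 to 0.43, 0.42 to 0.46 and 0.28 to 0.38. The symmetric ran from 0.94 to 1.07, 0.80 to 0.87 and 0.54 to 0.60, and piggyBat from 0.14 to 0.25, 0.62 to 0.72 and 0.38 to 0.44. Only the hyperactive difference turned sign, on chromosome 10, to 0.0031 without short_PB replicate 1 or sym_rehyPB replicate 2 and to 0.013 without sym_rePB replicate 3. Called bins ran from 62 (without WT_PB replicate 3) to 119, 65 to 85, 1025 to 1109, 1135 to 1199 and 1051 to 1167 for hyperactive, re-engineered, short, symmetric and piggyBat. The shallow libraries' 87 to 496 sites per segment limit what single bins and genes can show there.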
